A study of Mus musculus with 27 samples.

Results

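RNA of whole brain from C57 mice was measured on 5 arrays, 1 for each of 5 animals, and the results below give the signal of named genes in these brains and how far the animals differed from one another. The 5 arrays are those of a table of 12488 probe sets whose titles give the strain and a number with no letter, out of 27 arrays in the series. The labels describe the C57 mice as naive males of 10 weeks, write the strain as C57BL/2, and give 5 ug of total RNA as the start of labelling, after extraction with a column kit made for fatty tissue. The same table holds 4 DBA arrays (DBA/2J, naive, 10 weeks, sex not given), which serve here only as a measure of how much another group of animals varied. The 18 arrays with lettered titles belong to another platform and were not used. All animals are untreated and no condition differs among the C57 mice. With 1 array per animal, variation between animals and error of the array cannot be told apart, and the labels do not say how the brains were dissected or at what hour. The labels' remark that a sample is also known as C57 1 stands on every sample and was not used.

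A whole brain is a mixture of regions and cell types. Neurons carry the synaptic and cytoskeletal genes, oligodendrocytes wrap axons in myelin, astrocytes and microglia are the other main glia, and the choroid plexus is the thin secretory tissue of the ventricles that makes cerebrospinal fluid. The pituitary gland hangs below the hypothalamus and the olfactory bulbs lie at the front, so either can be kept or lost when a brain is lifted out, and blood remains in vessels unless it is flushed. Immediate early genes are transcription factors and signalling regulators that neurons switch on within minutes of stimulation, without new protein. In a tissue homogenate, fewer cells of a type and less RNA per cell cannot be told apart.

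Values are log2 of the deposited intensity. A probe set was called bright when its geometric mean over the 5 animals was over 35, which held for 9331 of 12422 sets that are not array controls (75.1%), standing for 6873 named genes. Just inside this limit lay Opn1sw, the short-wave cone pigment, with a geometric mean intensity of 35.8, and just outside it lay Adm, the peptide adrenomedullin, at 33.8 and Prl, the hormone prolactin, at 33.7. Correlations between pairs of C57 arrays across all sets ran from 0.957 to 0.970, and sets are not independent replicates. The mean intensity without the top and bottom 2% was 500.3 on each array, so a change in the dim part of an array is matched by an opposite change elsewhere. The arrays of animals 1 and 3 had the brighter low end, with lower quartiles of 44.8 and 44.1 against 34.7, 36.9 and 32.1 in animals 2, 4 and 5.

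Animals 1 and 3 were also most often the highest at dim probe sets. Of all bright sets 30.6% were highest in animal 1, 12.9% in animal 2, 26.8% in animal 3, 15.7% in animal 4 and 14.1% in animal 5. Of those with a mean of 35 to 200, 70.9% were highest in animal 1 or 3, against 49.4% of those over 200. At sets over 1000 the order turned, and 38.9% had their lowest animal in animal 1. Counts of members that share a highest or lowest animal are read against these shares below, and no list is given a test. The deviations used no further scaling. Centring each array on its median would move all values of animals 1 to 5 by -0.16, 0.08, -0.11, 0.07 and 0.15. The shares of all sets would move with it, and they were not counted again under other scalings. List counts under other scalings below therefore have no such share beside them.

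**Figure D1:**
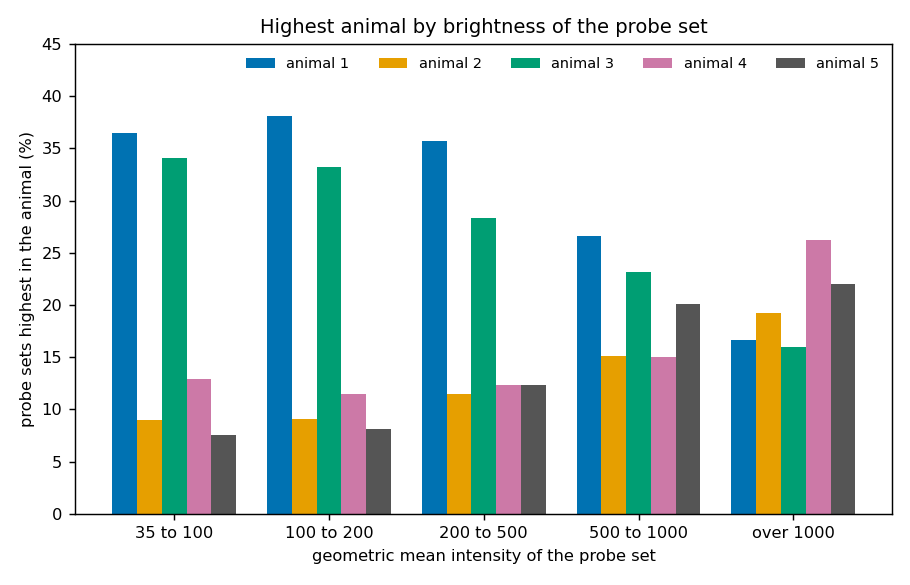
Percent of bright probe sets (vertical axis) whose highest of 5 C57 animals is the animal given by the bar colour, in 5 classes of geometric mean intensity (horizontal axis, 1910, 1535, 2244, 1641 and 2001 sets). Animals 1 and 3 hold most highest values up to an intensity of 500, and animals 4 and 5 the most over 1000.

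Nearly all measured genes of the neuron, astrocyte and microglia lists were bright. A percentile below is the place of a set's signal among all sets that are not controls. It depends on the probes as well as on the RNA, and genes are not ranked against each other by it. All 16 measured genes of the neuron list were bright, at a median percentile of 97.6. Snap25, a core protein of synaptic vesicle fusion, had log2 intensities of 13.85, 14.16, 13.86, 14.19 and 14.07 in animals 1 to 5 (mean 14.03 ± 0.16, SD, n = 5), at percentile 99.9. Vsnl1, a neuronal calcium sensor, lay between 13.34 and 13.61, and Eno2, the neuronal enolase, between 12.56 and 12.76. Syn2, a synaptic vesicle protein, lay between 10.84 and 10.99. The animals overlapped closely at these genes, and no animal stood apart in all of them.

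Of the astrocyte genes, 13 of 13 measured were bright, at a median percentile of 92.5. Apoe, the lipid carrier that astrocytes secrete, gave 13.72, 14.06, 13.94, 14.40 and 14.14. Sparcl1, a secreted matrix protein, lay between 12.94 and 13.09 and Gja1, the astrocyte gap junction protein, between 12.43 and 12.64. An exception was Fgfr3, a growth factor receptor, at a dim set, 162253_i_at, with 4.05, 5.73, 6.46, 6.50 and 4.55. Of the microglia list, 11 of 12 measured genes were bright, at a median percentile of 70.6. Ctss, a lysosomal protease, lay between 10.67 and 11.15, the complement gene C1qa between 10.09 and 10.38, and Laptm5, a lysosomal membrane protein of immune cells, between 8.90 and 9.02. Fcer1g, the Fc receptor gamma chain, was the microglia gene that was not bright, at a mean of 3.19.

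Markers of single brain regions and of small groups of neurons were bright as well. All 8 measured cerebellum genes were bright, among them Zic1, a transcription factor of granule neurons, between 11.57 and 11.95, and Calb1, the Purkinje cell calcium buffer, between 11.10 and 11.33. Penk, the enkephalin precursor of striatal neurons, lay between 12.92 and 13.39. Sst and Pvalb, which mark classes of inhibitory neurons, lay between 11.65 and 12.09 and between 12.29 and 12.94. Of the neuropeptides of small hypothalamic groups, Hcrt, which encodes orexin, lay between 8.56 and 8.96.

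Genes of tissues outside the brain were partly below the limit. Of 16 measured genes of liver, kidney, pancreas and testis 4 were bright, and of 13 of skeletal muscle 8, against 75.1% of all sets. Alb, the serum albumin of liver, had a mean of 4.89, Ins2, insulin, 3.57, and Prm1, the protamine of sperm, 2.38. The sex-linked genes were read against the label of male. Xist, the RNA that coats the inactive X chromosome of females, was not bright in C57 at 4.80, 4.29, 5.17, 4.97 and 4.42. Of the Y-linked genes, Eif2s3y, a translation factor subunit, was bright at 7.96 to 8.59 and Uty, a histone demethylase relative, at 5.85 to 7.44, while Kdm5d lay below the limit with a mean of 4.28.

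Spread between animals depended first on brightness. The SD of log2 intensity over the 5 animals had a median of 0.23 over all bright sets, which is a spread of 17.2% around the mean, with a 10th percentile of 0.10, a 90th of 0.56 and a 99th of 1.11. The median SD was 0.47 for sets with a mean of 35 to 100 and 0.30, 0.22, 0.17 and 0.15 in the next 4 classes up to sets over 1000. An SD over 0.5 was found at 13.1% of bright sets (1227) and at 2.28% of those over 200. The highest animal was over 2-fold above the lowest at 20.2% of bright sets. In the 4 DBA animals the same bright sets had a median SD of 0.23. The neuron list had a median SD of 0.13, and the lists of immediate early and myelin genes 0.29 each. The lists of choroid plexus and of excitatory neuron genes each had 0.36.

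**Figure D2:**
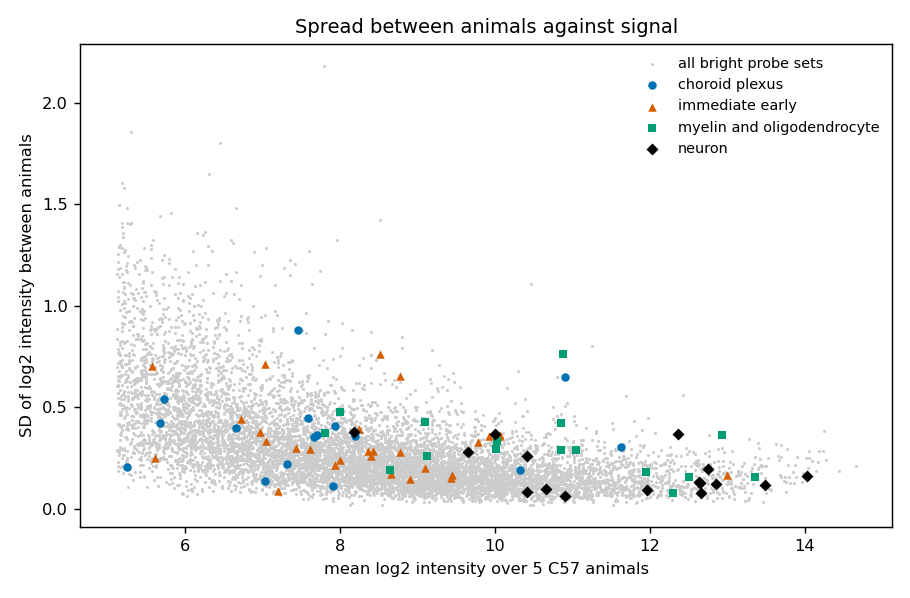
SD of log2 intensity between 5 C57 animals (vertical axis) against mean log2 intensity (horizontal axis) for all bright probe sets (grey) and for the brightest set of each bright gene of 4 lists (coloured). The spread narrows with signal. The neuron genes have a median SD of 0.13, and all sets over 1000 have 0.15. Ttr and Folr1 of the choroid plexus, Nr4a1 and Fos of the immediate early genes and Mal of the myelin genes lie above most sets of like signal.

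The 8 genes with the smallest SD among those over 200 included splicing, proteasome and translation factors. Srsf11, a splicing factor, gave 10.47, 10.50, 10.48, 10.49 and 10.52 (SD 0.019). Psmd9, a chaperone of proteasome assembly, Psd, an exchange factor for a small GTPase, Iqgap1, a cytoskeletal scaffold, Ywhag, a 14-3-3 protein, Eif3c, a translation initiation factor, and Ddx1, an RNA helicase, had SDs of 0.019 to 0.028. With Armcx2 these 8 genes had a highest animal 1.03-fold to 1.05-fold above the lowest. They were picked for this value, so it is a description of these 5 arrays. The DBA animals, which were not used in the choice, had an SD of 0.06 at Armcx2, 0.10 at Ywhag and 0.06 at Ddx1, but 0.55 at Psmd9 and 0.23 at Iqgap1.

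The largest SD among sets over 200 was that of Tmem129, a ubiquitin ligase of the endoplasmic reticulum, by 161542_r_at, with 9.40, 4.40, 9.98, 7.78 and 7.40, a range of 48.0-fold with animal 2 far below the others. H2-K2, a class I histocompatibility gene, gave 8.33, 9.74, 6.16, 9.42 and 8.97 by 93714_f_at, lowest in animal 3. Astn1, a neuronal adhesion protein of migrating neurons, gave 9.38, 10.98, 9.17, 11.35 and 11.46. Kcnk1, a background potassium channel subunit, gave 10.77, 11.97, 10.08, 11.61 and 11.82. At Astn1 and Kcnk1 animals 1 and 3 lay below all others. Of the 12 sets with the largest SD, 7 carried the suffix r, which the array maker gave to sets whose probes break the usual design rules, against 3.5% of all sets over 200. Sets with this suffix had a median SD of 0.30, and plain sets 0.17. Csnk1d, casein kinase 1 delta, was among them, with 7.96, 8.84, 6.70, 8.67 and 8.64 by 97264_r_at, lowest in animal 3.

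Animals 1 and 3 stood together more often than any other pair. Among sets over 200, both were over 1.5-fold above the other 3 animals at 55 sets (0.934%) and over 1.5-fold below them at 20 (0.34%). The next pair was animals 4 and 5, which lay below the other 3 at 12 sets (0.204%), and all other pairs had fewer sets in either direction. Single animals were also counted. An animal was over 2-fold below each of the other 4 at 2.98% of bright sets (278 sets) and over 2-fold above them at 0.514% (48 sets). With fewer animals to compare, 132, 83 and 84 sets were above without animal 1, 3 or 4. With all 5 animals, animal 5 had 80 low sets (0.857%), animal 3 had 71 (0.761%), animal 4 had 55 (0.589%), animal 2 had 50 (0.536%) and animal 1 had 22 (0.236%). The order of the animals moved with the scaling: animals 1 to 5 had 36, 45, 81, 53 and 57 low sets with median centring, and 43, 37, 95, 54 and 42 with quantile normalization. Of sets over 200 the counts were 17 low and 1 high. The high one was Ccni, a cyclin, by 94820_r_at, at 9.62 in animal 1 and 7.76 to 8.62 in the others.

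Genes of the choroid plexus were often lowest in animal 1. Of 29 listed genes 19 were measured and 16 were bright, and 9 of the 16 were lowest in animal 1, against 17.0% of all bright sets and 7.9% of those with a mean of 35 to 200. The other way, 6 of the 16 lay above their mean in animal 1. Ttr, transthyretin, the thyroid hormone carrier that is the main secreted product of the choroid plexus, had 9.83 in animal 1 and 11.54, 10.94, 11.25 and 10.96 in animals 2 to 5, so animal 1 was 2.54-fold below the mean of the others. Folr1, the folate receptor that carries folate into cerebrospinal fluid, had 5.93 and then 8.15, 7.58, 7.95 and 7.69, which was 3.76-fold below. Animal 1 lay below every other animal at both genes, with no overlap.

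Other members had the same lowest animal. Slc4a5, a sodium bicarbonate cotransporter, had 4.77 in animal 1 and 5.92 to 6.03 in the others, 2.31-fold below. Kl, klotho, a coreceptor of fibroblast growth factor signalling, had 7.14 against 7.53 to 8.03. Col8a1, a short-chain collagen, had 5.99 against 6.70 to 7.02, F5, coagulation factor V, 5.09 against 5.43 to 6.09, and Igf2, insulin-like growth factor 2, which choroid plexus and meninges both make, 11.17 against 11.55 to 11.99. Without animal 1 the SD dropped from 0.65 to 0.28 at Ttr, from 0.88 to 0.25 at Folr1 and from 0.54 to 0.04 at Slc4a5, so animal 1 decided these spreads. The order of the other 4 animals changed from gene to gene.

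Other members of the list did not share this order. Lbp, which binds bacterial lipopolysaccharide, Cdh3, a cadherin, Msx1, a homeobox factor, and Atp4a, a proton pump subunit, were highest in animal 1 or 3 and lowest in animal 5 in each case. Car12, a carbonic anhydrase, lay between 7.82 and 8.08. Aqp1, the water channel, Cldn1 and Cldn2, tight junction proteins, were not bright. A dimmer set of Folr1, 162302_f_at, was not bright either and was highest in animal 3. With the list held to its 8 members over 200, 4 were lowest in animal 1, against 22.4% of all sets over 200. The count stayed at 9 of 16 with median centring and with quantile normalization. Other lists were often lowest in animal 1 too. Without further scaling this held for 9 of 14 ribosomal protein, 6 of 13 astrocyte and 6 of 16 neuron genes, and for 38.9% of all sets over 1000. It held for 1 of 28 immediate early and 0 of 8 pituitary genes. The median deviation in animal 1 was -0.25 for choroid plexus and -0.38 for monoamine and acetylcholine neuron genes. Median centring lowers all values of animal 1. With it 12 of 16 neuron, 9 of 13 astrocyte and 0 of 8 pituitary genes were lowest in animal 1. With quantile normalization these counts were 2, 6 and 0. In the DBA animals, which were not used to choose the list, Ttr had an SD of 0.22 and Folr1 of 0.13.

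**Figure D3:**
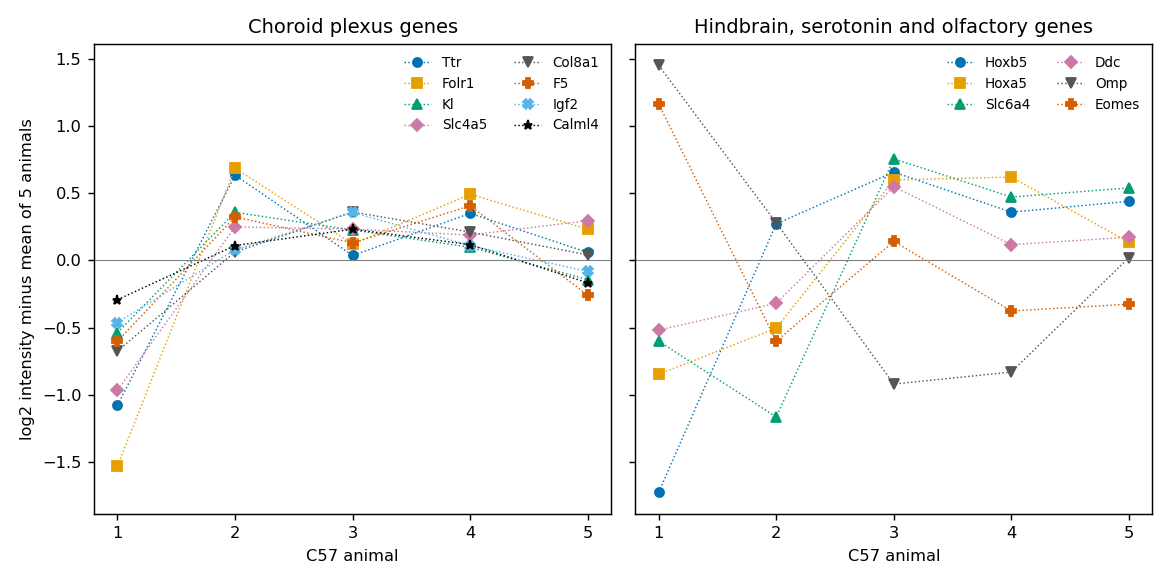
Log2 intensity minus the mean of 5 C57 animals (vertical axis) in each animal (horizontal axis) for 8 choroid plexus genes (left) and 6 genes of hindbrain, serotonin neurons and olfactory tissue (right). Dotted lines join the points of a gene and imply no order of the animals. The 8 choroid plexus genes were taken from the 9 of 16 bright members that were lowest in animal 1, so they agree there by choice. Omp and Eomes are highest in animal 1.

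Some regional genes differed between the animals too, with no lowest or highest animal common to a whole list. Hoxb5, a homeobox gene of the posterior hindbrain and spinal cord, had 5.44 in animal 1 and 7.44, 7.82, 7.52 and 7.60 in the others, 4.46-fold below. Hoxa5 gave 5.35, 5.69, 6.79, 6.81 and 6.33, so animals 1 and 2 were low together. Slc6a4, the serotonin transporter of raphe neurons, gave 6.38, 5.82, 7.73, 7.45 and 7.52, and Ddc, the decarboxylase that makes serotonin and dopamine, gave 8.29, 8.49, 9.36, 8.93 and 8.98. At Hoxa5, Slc6a4 and Ddc animals 1 and 2 lay below all of animals 3, 4 and 5. Not all hindbrain genes did so: Hoxb8 and Glra1, the glycine receptor subunit, were lowest in animal 5, and Th, which marks dopamine and noradrenaline neurons, was lowest in animal 3 (8.51) and 8.66 in animal 1. Over the 6 bright hindbrain genes, 2 were lowest in animal 1 and 3 in animal 5, against 17.0% and 24.1% of all bright sets. Of these genes 3 lay above their mean in animal 1, and all 6 did in animal 3. All 6 bright monoamine and acetylcholine neuron genes lay below their mean in animal 1 and above it in animal 5. Shares of all sets above or below their mean were not counted.

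Of the 3 bright genes of olfactory bulb and epithelium, 2 were highest in animal 1, against 30.6% of all bright sets. Omp, the marker protein of olfactory sensory neurons, gave 7.97, 6.80, 5.60, 5.69 and 6.54, and animal 1 was 3.51-fold above the mean of the others. Eomes, a transcription factor kept in mitral and tufted cells of the olfactory bulb, gave 7.20, 5.44, 6.18, 5.66 and 5.71. Olfm1, a brain-wide secreted glycoprotein and the third of the list, lay between 11.70 and 11.95 with animal 5 highest. S100a5, a calcium-binding protein of olfactory sensory neurons that is not on the list and was picked for its low value in animal 3, gave 8.58, 7.79, 6.61, 8.13 and 7.83. Without animal 1 the SD of Omp dropped from 0.96 to 0.60.

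The hypothalamic hormones of the posterior pituitary differed as well. Avp, vasopressin, gave 7.22 in animal 1, 8.63, 8.51 and 8.71 in animals 3, 4 and 5, and a value between these in animal 2. Oxt, oxytocin, gave 8.69, 8.74, 10.20, 9.29 and 8.98 in animals 1 to 5. Both were lowest in animal 1, with Avp 2.36-fold below the mean of the others, and Oxt was highest in animal 3. Hcrt had an SD of 0.15, and Trh, Gal and Gnrh1, which encode thyrotropin-releasing hormone, galanin and the gonadotropin-releasing hormone, were highest in animal 3. Over the 7 bright hypothalamus genes, 4 were highest in animal 3, against 26.8% of all bright sets.

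Immediate early genes were most often highest in animal 1. Of 37 listed genes 29 were measured and 28 were bright, and 18 of the 28 were highest in animal 1, against 30.6% of all bright sets, and 13 were lowest in animal 4, against 22.5%. Among the 19 members over 200, 14 were highest in animal 1 and 10 lowest in animal 4, against 26.7% and 22.1% of all sets over 200. The median deviation of the members was 0.33 in animal 1, 0.06 in animal 2, -0.07 in animal 3, -0.19 in animal 4 and -0.06 in animal 5. Part of this moves with the scaling. With each array centred on its median, 13 were highest in animal 1, 10 lowest in animal 4 and 12 lowest in animal 3, and with quantile normalization 16 of 28 were highest in animal 1 and 12 lowest in animal 4.

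The proximal promoters of 4 members are shown because members of this group are known to share control elements next to their start sites. These 4 were picked for a large SD, among bright members with 1 RefSeq window. Nr4a1, Fos and Ptgs2 were highest in animal 1, Fosl2 in animal 3. A link between motifs and the order of the animals was not tested. Each is the 250 bases before the transcription start as RefSeq gives it on assembly GRCm38.p6, and capitals mark TGACG or its reverse complement CGTCA, the core shared by cAMP response elements.

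Nr4a1, chr15:101266596-101266845, + strand: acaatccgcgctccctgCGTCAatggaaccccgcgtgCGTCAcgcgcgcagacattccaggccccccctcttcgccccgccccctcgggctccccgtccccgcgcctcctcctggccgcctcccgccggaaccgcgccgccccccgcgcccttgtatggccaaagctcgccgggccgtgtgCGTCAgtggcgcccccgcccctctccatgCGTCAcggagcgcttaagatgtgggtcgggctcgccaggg

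Fos, chr12:85473640-85473889, + strand: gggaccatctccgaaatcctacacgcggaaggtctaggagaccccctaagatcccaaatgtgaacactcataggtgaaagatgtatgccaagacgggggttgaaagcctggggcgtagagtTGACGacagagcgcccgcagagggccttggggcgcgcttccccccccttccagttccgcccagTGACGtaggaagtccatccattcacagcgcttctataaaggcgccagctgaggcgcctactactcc

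Ptgs2, chr1:150099781-150100030, + strand: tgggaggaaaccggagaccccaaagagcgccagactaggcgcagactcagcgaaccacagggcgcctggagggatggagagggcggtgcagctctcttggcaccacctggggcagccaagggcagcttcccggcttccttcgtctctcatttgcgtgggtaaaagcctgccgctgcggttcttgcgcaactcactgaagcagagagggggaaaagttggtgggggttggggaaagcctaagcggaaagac

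Fosl2, chr5:32136222-32136471, + strand: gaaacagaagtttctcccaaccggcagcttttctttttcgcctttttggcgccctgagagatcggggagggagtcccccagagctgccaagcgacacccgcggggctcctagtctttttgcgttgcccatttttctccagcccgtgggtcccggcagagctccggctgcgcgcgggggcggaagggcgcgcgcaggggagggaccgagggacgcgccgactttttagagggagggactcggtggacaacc

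By this search the window of Nr4a1 holds 4 such cores and that of Fos 2, while those of Ptgs2 and Fosl2 hold 0. RefSeq windows were found for 24 of the 28 members, 38 windows in all because some genes have several starts. TGACG, read on both strands, stood in 19 of the 38 windows (50.0%), against 17.8% of all 32851 windows of this length, and in 15 of the 24 genes, against 19.8% of all genes. The full palindrome TGACGTCA, whose matches are also counted among those of TGACG, stood in 3 of 38 (7.89%), against 1.55%, and in 3 of the 24 genes, against 1.77%. The CArG box, the site known for serum response factor, stood in 5 of 38 (13.2%), against 1.47%, but these windows belong to only 2 of the 24 genes, against 1.62% of all genes. A match is a run of letters and not a binding site, and windows of 1 gene can overlap.

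Nr4a1, an orphan nuclear receptor, had the largest SD of the group, with 9.60, 8.72, 8.61, 7.52 and 8.17 in animals 1 to 5 (SD 0.76), 4.20-fold from lowest to highest. Fos, a subunit of the AP-1 factor, had 9.57, 9.12, 8.54, 7.82 and 8.83. Egr2, a zinc finger factor, had 8.08, 7.05, 6.79, 6.11 and 7.17. At all 3 genes animal 1 was highest and animal 4 lowest, and the other 3 animals lay between them. Egr1 had 10.64, 10.07, 9.68, 9.84 and 10.08, and Junb by its brightest set 8.78, 8.50, 7.81, 7.95 and 8.21, both with animal 3 lowest. At a dimmer set of Junb, 102362_i_at, animal 5 was highest. Klf4 ran from 6.51 in animal 4 to 7.52 in animal 1.

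Some signalling and secreted members showed the same end animals. Dusp1, a phosphatase that switches MAP kinases off, had 10.63, 9.97, 10.04, 9.63 and 10.00, and Dusp6 10.23, 10.02, 9.64, 9.43 and 9.61. Ptgs2, cyclooxygenase 2, the inducible enzyme of prostaglandin synthesis, had 6.42, 6.14, 5.53, 4.88 and 4.90. Bdnf, a neurotrophin induced by activity, had 10.48, 10.05, 9.80, 9.57 and 9.71. Animal 1 was highest and animal 4 lowest at each of these 4 genes. The order was not shared by Jund, an AP-1 subunit with high basal levels, which lay at 12.89 to 12.95 in 4 animals and 13.29 in animal 4, or by Fosl2, with 6.61, 6.79, 7.40, 6.69 and 6.16. Homer1 and Gadd45b, each by its brightest set, were highest in animal 5 and lowest in animal 3, while a dimmer set of each was highest in animal 1. Zfp36, an RNA-destabilizing protein, lay between 7.11 and 7.33.

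Genes known to answer other stimuli were looked at beside them. Of 13 bright circadian clock genes, Per2 had the largest SD, with 7.40, 7.26, 6.55, 6.53 and 6.59, so that animals 1 and 2 lay above the others. Per1, which is also induced with the immediate early genes, lay between 8.49 and 8.89. Vegfa, of the hypoxia-induced list, was highest in animal 1 (8.41) and lowest in animal 4 (7.54), and Hspa1b, an inducible heat shock gene, stood at 8.26 and 8.08 in animals 1 and 2 and 7.20 to 7.34 in the others. The median SD was 0.19 for the clock list, 0.16 for the hypoxia list and 0.14 for the heat shock list. Fkbp5 and Sgk1, induced by glucocorticoids, were lowest in animal 5, as were 7 of the 10 bright genes of that list, against 24.1% of all bright sets. With median centring 4 of the 10 were lowest in animal 5 and 4 in animal 1, and with quantile normalization 6 were lowest in animal 5.

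Myelin genes were most often lowest in animal 2 or animal 1. Of 30 listed genes 17 were measured and 16 were bright, all of them over 200. Of the 16, 8 were lowest in animal 2 and 6 in animal 1, against 14.5% and 22.4% of all sets over 200. In either animal 0 were highest, against 15.1% and 26.7% of all sets over 200. The median of the members' mean log2 intensities was 10.86, which is an intensity over 1000. Of all sets over 1000, 8.45% were lowest in animal 2 and 38.9% in animal 1, and 19.2% and 16.6% were highest there. The 6 members lowest in animal 1 are near this share of 38.9%. With median centring 6 were lowest in animal 2 and 8 in animal 1, and with quantile normalization 9 in animal 2 and 3 in animal 1. Under either scaling 1 of the 16 was highest in animal 2. Mobp, a basic protein of compact myelin, had 12.46, 12.63, 13.12, 13.29 and 13.15, so animals 1 and 2 lay below the other 3. Its set 99047_at had the same lowest and highest animals, while 99046_at was highest in animal 1.

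Several membrane and lipid genes of myelin were lowest in animal 2. Mog, a surface glycoprotein, had 10.01, 9.50, 10.25, 10.02 and 10.37. Ugt8a, the enzyme that makes galactosylceramide, had 9.35, 8.40, 9.38, 8.98 and 9.38. Mag, the adhesion protein that faces the axon, had 10.84, 10.66, 11.16, 11.28 and 11.33. At Ugt8a animal 1 lay among the higher animals, and at Mog and Mag it lay below them, at Mog only just. Gsn, gelsolin, an actin-severing protein of oligodendrocytes, ran from 10.21 in animal 2 to 11.30 in animal 5, and Nkx6-2, a transcription factor of maturing oligodendrocytes, from 7.43 in animal 1 to 8.53 in animal 5. Mal, a proteolipid of myelin rafts, went another way, with 11.55, 10.86, 11.73, 10.03 and 10.23, lowest in animals 4 and 5. Cnp, an enzyme of non-compact myelin, was not bright by its set. Car2, carbonic anhydrase 2, lay between 12.19 and 12.36. Of the oligodendrocyte precursor list, Pdgfra, the receptor that marks these cells, was lowest in animal 4 (9.86).

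**Figure D4:**
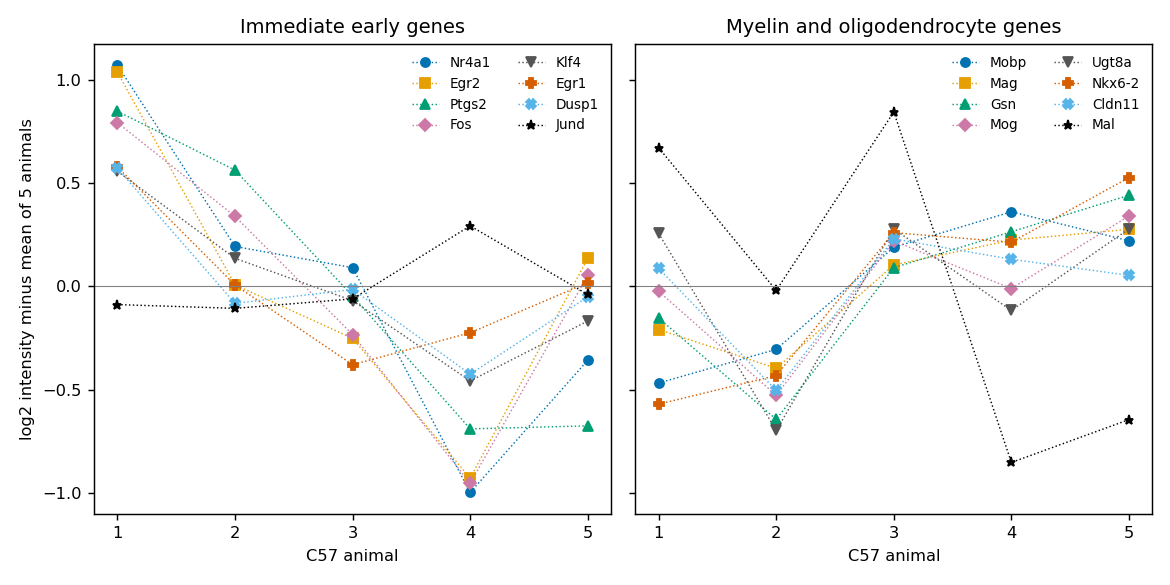
Log2 intensity minus the mean of 5 C57 animals (vertical axis) in each animal (horizontal axis) for 8 immediate early genes (left) and 8 myelin genes (right). Dotted lines join the points of a gene and imply no order of the animals; Nr4a1, Egr2, Fos and Dusp1 are highest in animal 1 and lowest in animal 4 and Jund is highest in animal 4, while Mobp, Mag, Gsn and Nkx6-2 are lower in animals 1 and 2 than in animals 3, 4 and 5 and Mal is lowest in animals 4 and 5.

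Pituitary hormones gave dim signals that were highest in animals 1 and 3. Of 16 listed genes 11 were measured and 8 were bright, and all 8 were highest in animal 1 or 3, against 57.3% of all bright sets and 70.9% of those with a mean of 35 to 200. Gh, growth hormone, had 8.18, 7.53, 8.60, 7.31 and 7.36. Ghrhr, the receptor that drives its release, had 6.84, 5.68, 7.34, 6.30 and 5.84, and Pitx1, a pituitary transcription factor, 7.26, 6.82, 7.12, 5.02 and 5.97. With median centring 6 of the 8 were highest in animal 1 or 3. At Gh and Ghrhr animals 1 and 3 lay above the other 3, as they did in the lower quartile of the arrays. Prl, Tshb and Fshb, the hormone genes of lactotrophs, thyrotrophs and gonadotrophs, were not bright, and Prl was at 5.00, 5.97, 6.23, 4.44 and 3.73. Pomc, the precursor of corticotropin, which hypothalamic neurons also make, ran from 6.95 to 7.67. The part of the arrays' low end in this order was not tested.

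Some genes of tissues that a brain does not hold were also high in animals 1 and 3. Cyp2e1, a liver cytochrome, gave 8.11, 7.08, 8.30, 7.12 and 6.98, and Ctrb1, a pancreatic protease, 8.83, 7.43, 8.96, 6.14 and 7.38. Ckm, the muscle creatine kinase, gave 7.02, 6.45, 7.11, 5.80 and 6.09. Animals 1 and 3 were above the other 3 at these genes, of which Ctrb1 was picked for its spread and the others after their values were seen. Of the 8 bright skeletal muscle genes 6 were highest in animal 1 or 3, as were 3 of the 4 bright genes of liver, kidney, pancreas and testis, shares near the 70.9% of all sets with a mean of 35 to 200. Aanat, the melatonin-making enzyme of the pineal gland, gave 8.56, 6.46, 8.81, 7.81 and 7.60, while Crx, a photoreceptor and pineal factor, gave 6.39, 6.56, 4.64, 6.65 and 3.74. The array control for 18S ribosomal RNA also differed, at 10.24 in animal 1, 8.22 in animal 3 and 6.95 to 7.57 in the others, and the 3′ control set of Pcx exceeded its 5′ set by 0.57 (log2) in animal 1 and by 0.95 to 1.22 in the others. Their part in the results was not tested.

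Blood genes were partly highest in animal 2. Hba-a1, an alpha globin, had 12.34, 13.18, 12.43, 12.88 and 12.99, and Hbb-b2, a beta globin, 10.02, 10.71, 10.32, 9.79 and 10.15. Both were highest in animal 2, but the lowest animal was 1 for the first and 4 for the second. Alas2, the erythroid enzyme that starts haem synthesis, had 7.58, 7.84, 7.61, 7.10 and 7.62. Globin sets can share signal between near-identical copies. Of the 5 bright erythroid genes, 3 were lowest in animal 4, against 22.5% of all bright sets, and 3 were highest in animal 2, against 12.9%. With median centring 2 were lowest in animal 4 and 3 in animal 1. Of the 10 bright white blood cell genes, 5 were highest in animal 3 and 4 in animal 2, against 26.8% and 12.9% of all bright sets. Only 1 of the 10 was over 200. Of all sets with a mean of 35 to 200, 33.7% were highest in animal 3 and 9.03% in animal 2. The list had a median deviation of -0.09 in animal 2. Among the 4 genes highest there, S100a8, a neutrophil calcium-binding protein, ran from 5.54 in animal 4 to 6.83 in animal 2. Elane, neutrophil elastase, ran from 6.24 in animal 4 to 7.37 in animal 2. Mpo, myeloperoxidase, and Cd79a, a B cell receptor subunit, were instead lowest in animal 2, at 4.91 and 5.29.

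The excitatory and inhibitory neuron lists had median SDs of 0.36 and 0.25, against 0.13 for the general neuron list. The excitatory list was dimmer, at a median percentile of 74.2 against 97.6 for the neuron list. Slc32a1, the transporter that loads GABA and glycine into vesicles, had 11.58, 12.55, 12.17, 12.89 and 12.92, lowest in animal 1 and 2.54-fold from lowest to highest. Gad2, a GABA-making enzyme, had 9.05, 8.31, 8.29, 7.64 and 8.11, highest in animal 1 and lowest in animal 4, while Gad1, the other such enzyme, lay between 12.46 and 12.93. Neurod6, a factor of cortical excitatory neurons, ran from 6.78 in animal 4 to 8.22 in animal 1. Oxidative phosphorylation and ribosomal protein genes lay high and close, with a median SD of 0.16 and 0.20. Of the 30 bright oxidative phosphorylation genes 18 were lowest in animal 1, which is read against 38.9% of all sets over 1000.

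**Figure D5:**
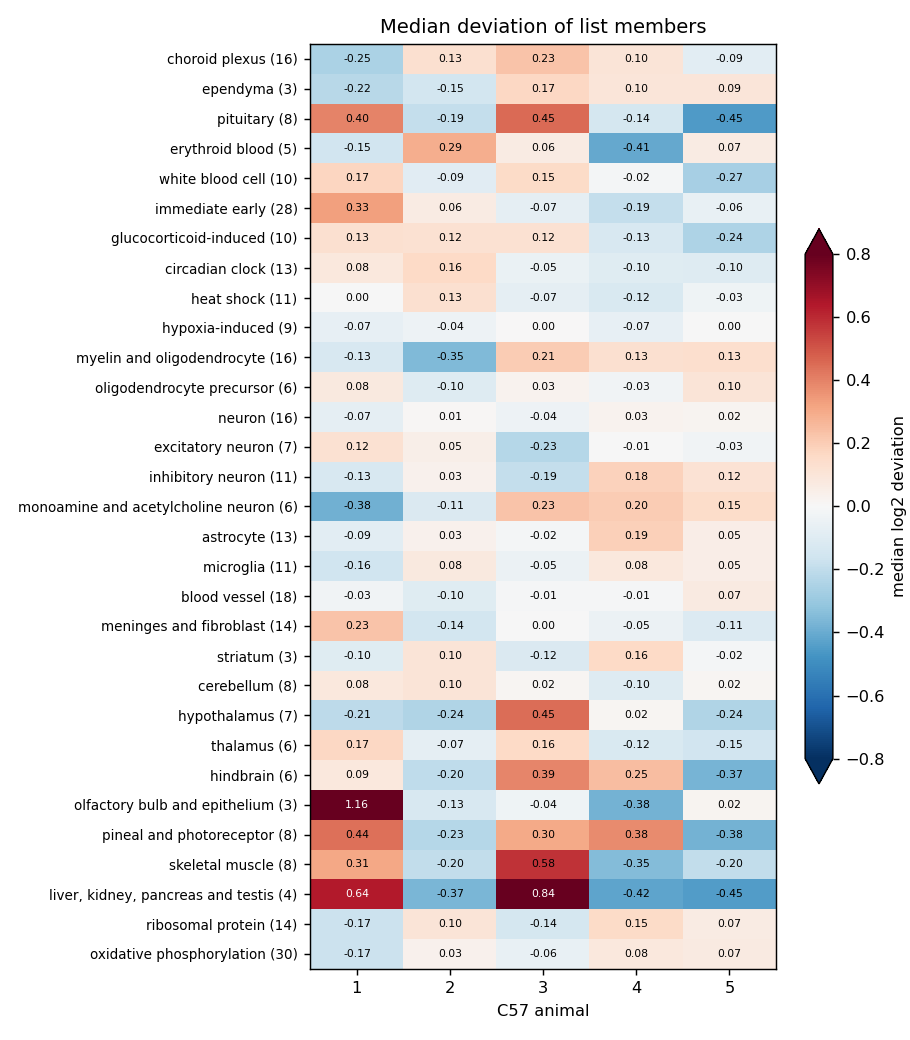
Median log2 deviation from the mean of 5 C57 animals (colour and printed value) over the bright members of each list with at least 3 (rows, number of members in brackets) in each animal (columns). Choroid plexus is lowest in animal 1, immediate early genes highest in animal 1 and lowest in animal 4, myelin lowest in animal 2, and pituitary, muscle and liver, kidney, pancreas and testis genes are high in animals 1 and 3.

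For 5 lists, genes outside that list were ranked by how near their deviations lay to its mean profile, by the root mean square difference over 5 animals among genes over 200 that varied at least as much as the profile. Nearest to the choroid plexus profile, of 2062 sets, was Pdlim7, a scaffold of the actin cytoskeleton, by 102845_at (0.030), then Ndufb7, a subunit of respiratory complex I on the oxidative phosphorylation list, Mt1, a metallothionein on the glucocorticoid-induced list, and Npy2r, a neuropeptide Y receptor. Another set of Pdlim7, 160837_at, was among the nearest to the pituitary profile, so the sets of this gene disagreed. The nearest to the immediate early profile, of 1650 sets, were Suz12, a subunit of the Polycomb complex (0.031), Man2a1, Tnks1bp1 and Ireb2, an iron regulatory protein. To the myelin profile the nearest, of 2397 sets, were Abcb8, Twsg1, Plxnd1 and Gamt, the enzyme that completes creatine synthesis, which had 9.25, 8.98, 9.52, 9.46 and 9.51. The nearest to the pituitary profile were Cel, a pancreatic lipase, then that set of Pdlim7, 1700097N02Rik and Col1a2, a collagen on the meninges and fibroblast list. To the erythroid profile they were Eif2b2, Zscan26, Atp2c1 and Ddx52. With 5 animals and so many candidates, the ranks are only a description.

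The spread of the C57 animals was set against that of the 4 DBA animals by limma on absolute deviations, 2-sided with Benjamini-Hochberg adjustment over 9340 sets. It called 0 sets with more spread in C57 and 4 (0.0428%) with more in DBA. At an unadjusted p under 0.05 there were 383 and 454. At Arih1, a ubiquitin ligase, the C57 animals had an SD of 0.21 and the DBA animals 1.22, with an adjusted p of 0.00167. Spi1, a transcription factor of myeloid cells, had 0.10 and 0.55 (adjusted p = 0.0158), and Slc2a5, the fructose transporter, 0.42 and 1.49 (adjusted p = 0.021). The remaining set could not be named here. At each of the 4 sets the DBA animals formed a high and a low pair, so their absolute deviations were nearly equal. DBA animals 1 to 4 had 9.40, 11.40, 9.42 and 11.62 at Arih1, and 4.15, 6.41, 6.78 and 3.93 at Slc2a5, where the low pair was dim. The calls were lost without any 1 DBA animal. Without C57 animal 1, 2, 3, 4 or 5 there were 13, 35, 14, 16 and 9 calls. On simulated data this fit recovered 1 of 100 sets whose SD differed 32-fold and called 12 unchanged ones, so neither a call nor its absence says much. A version on log2 deviations, added after that, recovered 92 of 100 at a 32-fold difference and 57 of 100 at an 8-fold one, with 38 false calls. On the measured data it called 15 sets, 8 with more spread in C57 and 7 with more in DBA. The simulated data held 100 changed sets at each difference, which the measured data need not hold. The 15 calls are therefore not read against the 38.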

How the data were processed

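The authors deposited 1 table of linear intensities for the 9 unlettered arrays, scaled to 1 common target, as the equal trimmed means show; the software for summary and scaling is not given in the sources used here. Intensities below 1.70, the 1st percentile of positive values, were raised to it (1.01% of C57 values), and log2 was taken. A platform annotation gave 1 gene symbol to 10855 sets, several to 396 and none to 1237, and 10839 were updated through gene identifiers to RefSeq of GRCm38.p6. The brightest set stood for a gene in the lists. Named genes were the 12 with the largest SD (mean over 35, and over 200), the 8 with the smallest, list members by SD and brightness, the 3 largest departures per animal and direction, calls of the spread test and the 4 sets nearest to each of 5 lists. Other list members were named after their values were seen. Members, lists and rules were chosen with earlier results of these data known. The number of arrays limits the precision, and no level was tested within C57. Calculations used R 4.3.3 with limma 3.58.1 and Python with pandas 2.3.3, numpy 2.4.6 and matplotlib 3.10.9. The spread test was also run on simulated data. Alternatives were other scaling, floors, pseudocounts and brightness limits, and leaving out each animal.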

Additional observations from a re-analysis of the deposited data

Results flagged for a closer look

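In 12 of 177 named probe sets and 1 of 31 list medians, 1 of the 5 C57 animals lay farther from the rest than Dixon's 95% limit of 0.71 allows. Many of the named sets were picked for a large SD or for the departure of 1 animal, so their number is not read against chance. Over all 9331 bright sets 442 (4.74%) were past the limit, where chance alone gives about 1 in 20. Among the 12 named sets past the limit, animal 1 was the low one at 7. It had log2 intensities of 5.93 at Folr1 (next animal 7.58), 4.77 at Slc4a5 (5.92), 5.44 at Hoxb5 (7.44), 6.61 at Rab3a, a synaptic vesicle GTPase (8.02), 7.01 at Fancc, a DNA repair gene (8.35), 8.49 at Otub1, a deubiquitinase (9.66), and 8.27 at Npy2r (8.68). Animal 2 was low at Pkp1, a plakophilin, with 4.05 (7.09), and at Mia, a secreted protein listed for ependyma, with 6.87 (7.40). Animal 4 was high at Jund with 13.29 (12.95) and low at Rap2b, a small GTPase, with 6.98 (8.15). Animal 5 was low at Cybb, a subunit of the phagocyte oxidase, with 2.63 (5.69). The median deviation of the 3 bright olfactory genes was 1.16 in animal 1 and 0.02 in the next animal.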

How the results depend on the processing

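Levels of the 177 named sets moved by under 1 SD in 1590 comparisons with an alternative and by more in 3, and their SDs were within 1.5 times in 1446 and beyond in 147. The number of bright sets with an SD over 0.5 (1227) was 792 with a pseudocount of 16, 356 for means over 100 and 3609 with no limit on brightness. Sets with 1 animal over 2-fold above the others (48) and below them (278) numbered 29 and 121 with the pseudocount, 7 and 61 for means over 100, 512 and 815 with no limit, 341 and 727 at 1.5-fold, and 1 and 17 for means over 200, a limit added after seeing the data. With members over 200, 4 of 8 choroid plexus genes were lowest in animal 1, 3 of 3 pituitary genes highest in animal 1 or 3 (5 of 5 for means over 100), and 1 of 3 erythroid genes lowest in animal 4. The sets called in the test of spread (4) numbered 11 with median centring, 12 with quantile normalization, 2 with a floor of 20, 2 for means over 100, 14 with no limit and 15 with log2 deviations. With the replicate block it called 0, and the deviations of C57 and DBA animals of the same number correlated at -0.104, -0.0138, -0.00748 and -0.165 across sets, so the numbers were not taken as pairs. The causes were not tested. Leaving out each animal in turn gave a median SD of 0.208 to 0.236 and 1027 to 1341 sets with an SD over 0.5. It gave 68 to 132 sets up and 243 to 317 down, 9264 to 9415 bright sets, and 0 to 35 calls of spread. List members were counted only where the named animal was kept. There, 18 to 21 immediate early genes were highest in animal 1 and 13 to 17 lowest in animal 4. For myelin, 8 to 10 genes were lowest in animal 2, and 8 to 9 pituitary genes were highest in animal 1 or 3. The choroid plexus count was 9 (lowest in animal 1) and the erythroid count 3 (lowest in animal 4). Leaving out another animal cannot lower these list counts unless the bright sets change, so they do not measure stability. Dim sets, near the background of the array, carry the widest spread, and 5 arrays limit every SD.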
